A study of Drosophila melanogaster with 38 samples.

Results

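MSL2 is the male-specific RING-finger subunit of the Male-specific lethal (MSL) complex, the assembly that Drosophila males use to raise transcription from their single X chromosome. The complex also holds MSL1, MSL3, the helicase MLE, the acetyltransferase MOF, which places acetyl groups on lysine 16 of histone H4, and a roX RNA. In the usual account it first binds a limited set of high-affinity sites (HAS), many of which carry a GA-rich sequence called the MSL recognition element, and from there reaches active genes along the X. MSL2 also touches other places on the X, and the peaks described here are the ones that lie at an intermediate distance from a HAS.

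The regions are 341 MSL2 peaks on the X chromosome. They were chosen by distance: the midpoint of each lies more than 5 kb and at most 50 kb from the midpoint of the nearest X peak in the deposited HAS list. They are 341 of the 680 X peaks that the submitters kept apart from the HAS, and 341 of 2524 distinct intervals over the 3 deposited lists. The nearest HAS was taken from 135 distinct X intervals. Of the other X peaks, 116 lie within 5 kb of a HAS and 223 beyond 50 kb, and these are the groups for comparison. Distance to a HAS, and everything that follows from it by construction, is therefore a description below and carries no test. Just inside the lower limit lay a peak 5114 bp from its HAS at the start of CG12065 and one 5235 bp away at Cbs, which encodes cystathionine β-synthase. Just outside it were peaks at slgA, the proline dehydrogenase gene, 4974 bp away, and at Lint-1, 4993 bp away. At the upper limit the last members lay 49670 bp away near Hr4, a nuclear receptor gene, and 49672 bp away at CG2865, and the first excluded peaks lay 50136 bp away at anox and 51514 bp away near CG3847.

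The series held 38 chromatin libraries from larvae in the third instar, 19 female and 19 male, of which 26 were immunoprecipitations and 12 inputs, with 1 library per group. Histones H3, H4, H3K36me3, H4K16ac, pan-acetylated H3 and H4, and MLE were precipitated from white-eyed (w1118) Oregon-R larvae, and H3 and H4K16ac also from msl-2-delta-7/10 / CyO-GFP larvae and from larvae with the alleles msl-2-delta-7 and msl-2-delta-10 together, titled msl2het and msl2null in that order. FLAG-tagged MSL2 came from larvae of each sex that had the transgene UAS-msl-2::3Flag with tub-Gal4 on the msl-2227/msl-2km background. There tub-Gal4, a driver active in most tissues, makes the tagged protein in females as well as males, and larvae without the tag, msl-2227/km / CyO-GFP ; + / +, were the FLAG control. Chromatin came from the front part of dissected larvae, so many tissues are mixed. The peak lists name no library, sex, control or threshold. A peak here is thus a place where MSL2 was called, with no height, no replicate and an unknown depth, and nothing below compares sexes or genotypes.

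GA-rich sequence is the hallmark of MSL recognition elements. Shown first, so that such sequence can be seen in the bases, are the longest uninterrupted GA alternations outside annotated untranslated exons. Each lies within 250 bp of a member midpoint. Capitals mark the alternation, the strand is the one that reads GA, and the bases are those of the reference genome of the dm6 build.

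fne, chrX:12926252-12926331, plus strand: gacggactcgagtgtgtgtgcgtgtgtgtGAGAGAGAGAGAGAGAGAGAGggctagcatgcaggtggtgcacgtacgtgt
Chsy, chrX:15593720-15593799, minus strand: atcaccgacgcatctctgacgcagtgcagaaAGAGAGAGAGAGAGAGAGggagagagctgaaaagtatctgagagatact
btd, chrX:9693840-9693919, plus strand: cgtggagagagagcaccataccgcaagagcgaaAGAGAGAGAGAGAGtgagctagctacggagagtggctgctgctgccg
mamo, chrX:13986777-13986856, minus strand: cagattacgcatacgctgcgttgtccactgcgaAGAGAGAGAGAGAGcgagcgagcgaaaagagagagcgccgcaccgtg
Hr4, chrX:1943451-1943530, minus strand: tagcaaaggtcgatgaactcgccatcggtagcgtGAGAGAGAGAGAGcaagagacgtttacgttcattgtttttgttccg

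The longest alternation, 21 bases, lies in an intron of fne, which encodes an RNA-binding protein of the ELAV family, and the next, 18 bases, near the start of Chsy, named for chondroitin sulfate synthase. The alternations of 14 bases lie near starts of btd and mamo, both encoding zinc-finger proteins, and the one of 13 bases in an intron of Hr4. Only the run at btd lies inside its called peak. The runs at fne, Chsy, mamo and Hr4 begin outside the peak edges, with centres 105 to 228 bp from the midpoint. Such runs were rare: the longest GA run in the 500 bp window of a member had a median of 5 bases, and 14 of the 341 windows held one of 12 bases or more. Each of the 5 lies outside annotated untranslated exons. On account of such exons 3 runs that ranked between those at Chsy and btd were passed over.

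Alternating CA was longer and more common, and the longest 3 runs follow for the same comparison.

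Cdc7, chrX:6656670-6656749, minus strand: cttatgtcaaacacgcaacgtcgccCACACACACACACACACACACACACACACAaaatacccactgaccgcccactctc
pigs, chrX:6624269-6624348, plus strand: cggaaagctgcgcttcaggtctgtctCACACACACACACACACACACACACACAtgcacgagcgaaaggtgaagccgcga
mamo, chrX:13986581-13986660, minus strand: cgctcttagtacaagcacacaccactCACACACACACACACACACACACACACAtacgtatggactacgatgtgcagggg

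The run of 30 bases lies in an intron of Cdc7, which encodes a kinase that fires replication origins, and the runs of 28 bases in an intron of pigs, a gene for a protein of the cytoskeleton, and near a start of mamo. The mamo peak, 297 bp wide and 10084 bp from its HAS, thus held the long CA run inside it and had the long GA run outside its edge. Of the other CA runs, that in pigs lies inside its peak and that in Cdc7 outside. The median longest CA run was 6 bases, and 48 of 341 windows held one of 12 bases or more. These counts of GA and CA runs are for members only, so they do not show whether long runs are particular to them.

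The members sat at gene starts more than anywhere else. Of the 341 midpoints, 243 lay within 500 bp of an annotated transcription start site (TSS), a share of 71.3% (95% Wilson interval 66.2 to 75.8), while 15.2% of the bases at this distance from a HAS lie that close to a TSS. Another 65 (19.1%) lay in introns, 12 (3.52%) in coding exons, 8 (2.35%) in 3′ untranslated regions, 3 each in 5′ untranslated regions and in noncoding exons, and 7 (2.05%) between genes. All these intervals cover counting error only, and they count each peak as independent although neighbours can share a gene.

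Gene parts differed from those of the other X peaks on either side. Coding exons held 3.52% of the members and 16.4% of the peaks within 5 kb of a HAS, 12.9 percentage points less (two-sided Fisher's exact test, adjusted p = 1.69e-04 over 14 comparisons of gene parts). Introns held 19.1% of the members and 8.62% of the peaks within 5 kb (adjusted exact p = 0.0404). Intergenic midpoints made up 2.05% of the members and 6.73% of the peaks beyond 50 kb (adjusted exact p = 0.0404). The promoter share was 10.3 percentage points above the 61.0% of the peaks beyond 50 kb (adjusted exact p = 0.0462). It was 7.47 points above the 63.8% of the peaks within 5 kb, a difference that did not pass (adjusted exact p = 0.297). TSS density differs between the distances too: 9.64% of the bases beyond 50 kb and 26.8% of those within 5 kb lie within 500 bp of a TSS, and the part of this in the shares was not tested.

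Of these calls, only that of coding exons passed in all but 1 of its alternatives. Its exception was the set of peaks of at least 250 bp (-7.56 points, adjusted exact p = 0.146). The call on the promoter share against the peaks beyond 50 kb was lost in 7 of its 8 alternatives, with adjusted exact p between 0.0522 and 0.504, including with promoters defined as within 200 bp or within 1000 bp of a TSS and with 1 peak kept per 2 kb. The intron call was lost in 4 and the intergenic call in 5 of their alternatives.

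**Figure D1:**
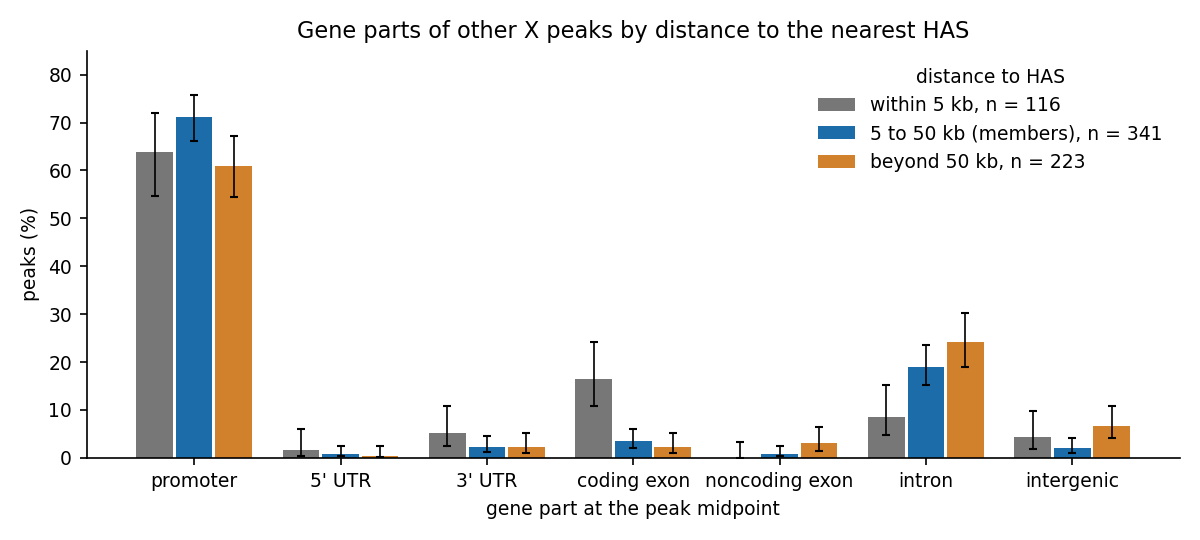
Share of peaks (vertical axis, percent) with the midpoint in each gene part (horizontal axis) for other X peaks within 5 kb of a HAS, for the members at 5 to 50 kb and for those beyond 50 kb, with 95% Wilson intervals. Promoters lead in each class, at 63.8, 71.3 and 61.0%, and coding exons stand out only within 5 kb, at 16.4%.

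At the promoters, the midpoints clustered around the start itself. For the 179 promoter members with TSS on 1 strand only within 500 bp, the median midpoint lay 8 bp downstream of the nearest TSS (quartiles 60 bp upstream and 110 bp downstream). In this group 99 midpoints (55.3%) lay within 100 bp of the TSS, and 84 (46.9%, 39.8 to 54.2) lay upstream of it. The other 64 promoter members (26.3%) had starts of genes on both strands within reach, as between divergent genes. Among the 243, the nearest start was the first TSS of its gene in 170 (70.0%) and an internal one in 73, and the gene was protein-coding in 228. The direction of the gene against its HAS was balanced: 87 of the 179 were transcribed towards the HAS and 92 away from it (48.6% towards, 41.4 to 55.9, exact binomial test against 50%, two-sided, p = 0.765).

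Widths did not set the members apart. Their median was 253 bp (quartiles 184 and 386, range 150 to 2536), against 274 bp within 5 kb and 238 bp beyond 50 kb. Peaks of at least 300 bp made up 38.7% of the members, 5.53 percentage points more than beyond 50 kb (adjusted exact p = 0.421, Fisher's exact test) and against those within 5 kb the difference was -4.39 points (adjusted exact p = 0.443). Promoter members had a median of 277 bp and the others of 204.5 bp, a description without a test.

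The 6 widest members lie in few places. The widest, 2536 bp at chrX:3742278-3744813, is intronic in Tlk, which encodes the Tousled-like kinase, and lies 37504 bp from a HAS that is also within Tlk. The next 3 stand close together, at 2409 bp (chrX:7299630-7302038), 1725 bp (chrX:7306590-7308314) and 1642 bp (chrX:7285969-7287610), beside brk and CG2059. Here brk encodes Brinker, a repressor of genes that Dpp signalling switches on. All these 3 lie inside CG1677 and the long noncoding RNA gene lncRNA:CR44357, which also span the HAS nearest to them, and all are on the same side of it, at 13545 to 34208 bp. The others are 1476 bp at a start of CG6891 and 1252 bp at a start of Dd, which encodes a phosphatase of the nuclear membrane.

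Density fell with distance. At 5 to 10 kb from a HAS there were 78 members, or 66.3 per Mb of the X at that distance. The density was 53.5 per Mb at 10 to 20 kb, 33.1 at 20 to 30 kb, 26.5 at 30 to 40 kb and 21.7 at 40 to 50 kb, and over the whole zone it was 39.0 per Mb, between 89.3 within 5 kb and 16.6 beyond 50 kb. The fraction of bases within 500 bp of a TSS also falls along these bins, from 23.8% to 10.4%. The median distance of a member was 18129 bp, with quartiles of 10394 and 29698 bp.

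Within the members, the promoter share was 82.1% (72.1 to 89.0) at 5 to 10 kb, 71.9% at 10 to 20 kb, 61.5% (49.4 to 72.4) at 20 to 30 kb, 66.7% at 30 to 40 kb and 69.4% at 40 to 50 kb. Split at 20 kb, 146 of 192 nearer members (76.0%) and 97 of 149 farther ones (65.1%) were at promoters, and the difference of 10.9 points did not pass (Fisher's exact test, adjusted exact p = 0.0603). It passed with the split at 15 kb (15.2 points, adjusted exact p = 0.00486) and not at 30 kb (4.52 points, adjusted exact p = 0.488). The GA repeat share was 40.6% in the nearer and 47.7% in the farther members (adjusted exact p = 0.226).

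**Figure D2:**
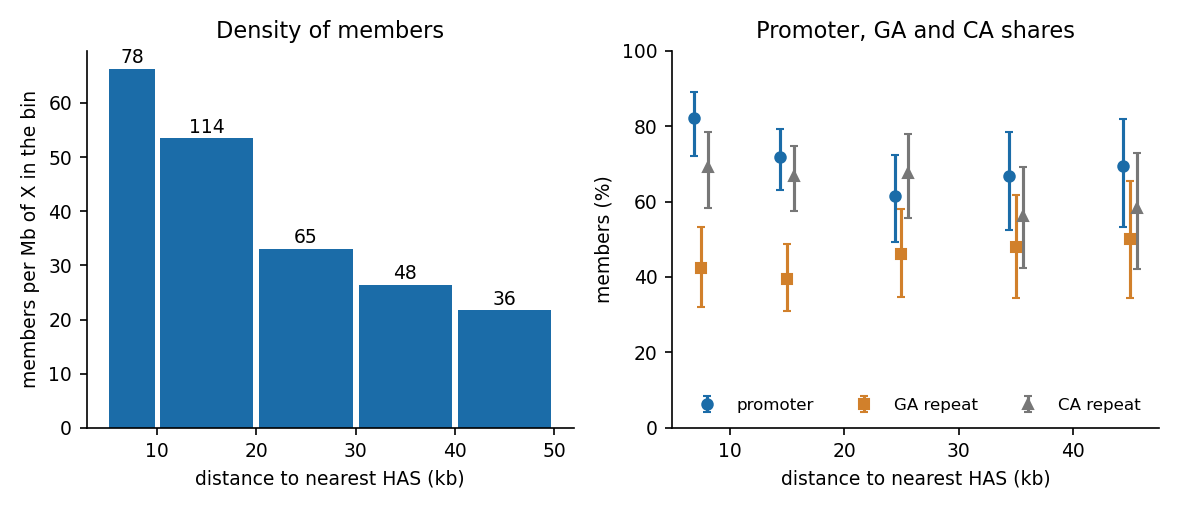
Left, members per Mb of X sequence (bars, from 0) in 5 bins of distance to the nearest HAS in kb, with the number of members above each bar; the bins decline from 66.3 to 21.7 per Mb. Right, the percent of members in each bin at promoters, with a GA repeat and with a CA repeat, with 95% Wilson intervals; the promoter share is highest, 82.1%, in the nearest bin.

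HAS differed in how many members had them as the nearest. Of the 135 HAS, 110 had at least 1 and 25 had 0, with a median of 2. Each member was counted only at its nearest HAS. Counts and sides thus also depend on the spacing of the HAS, which was not allowed for. For instance, the neighbouring HAS at roX2 (chrX:11578938-11579163) and nod (chrX:11580060-11581025) had members on the left only (2) and on the right only (6). The 25 HAS with 5 or more accounted for 156 members (45.7%). The busiest, with 10 members, lies at the start of Hmt4-20, the gene of a methyltransferase for histone H4 lysine 20, and 9 of its 10 lie to the left, at up to 37.5 kb. Another 5 HAS had 8 members each: one in a coding exon of Raf, nearest to the start of mRpL14, and the others in an intron of Tlk, in an intron of dlg1, which encodes a scaffold of cell polarity, in a coding exon of Socs16D near CG12986, and at the end of CG18809. Promoters held 9 of the 10 members round Hmt4-20, 3 of the 8 round Raf and 1 of the 8 round Tlk. Over all members, 38 (11.1%) shared a gene with their nearest HAS, in 21 genes. Across the X, 187 members lay to the left of their HAS and 154 to the right.

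**Figure D3:**
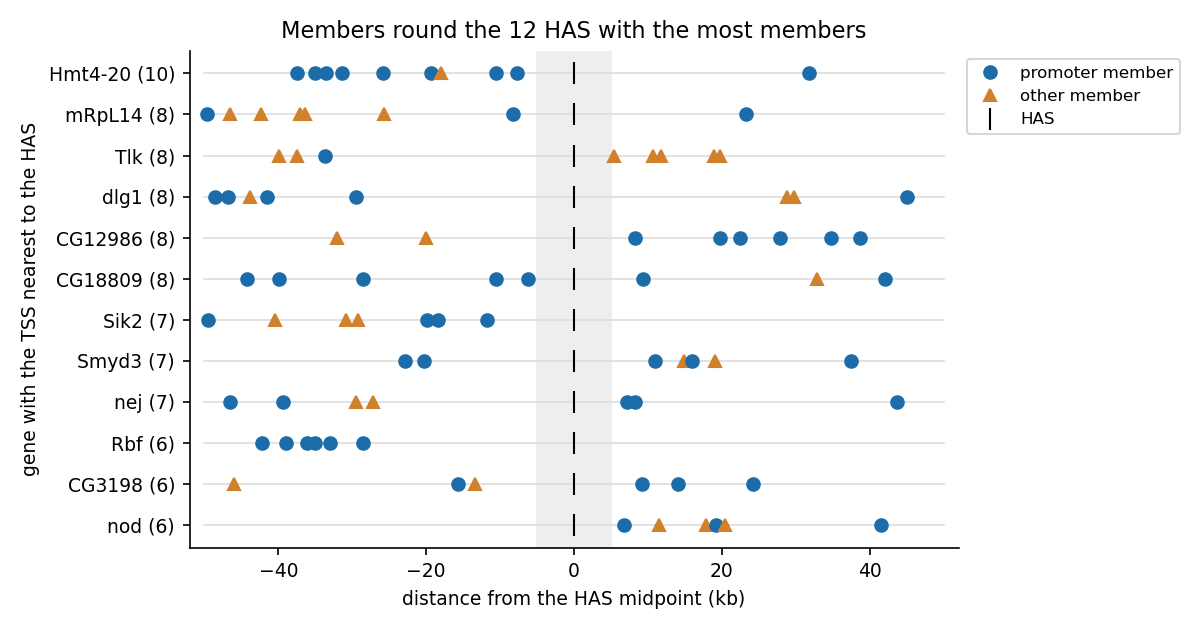
Members (circles at promoters, triangles elsewhere) by signed distance in kb (horizontal axis) from each of the 12 HAS with the most members (vertical axis, named by the gene with the nearest TSS, with the number of members), the bar being the HAS and the grey band the excluded 5 kb to either side. The HAS at Hmt4-20 has 9 of its 10 members on the left side. Members nearer to another HAS are not drawn, so counts and sides also depend on the spacing of the HAS.

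A few genes held many members, counting those that touch the gene or the 1 kb to either side. Raf, the kinase between Ras and MEK, held the most, 6 peaks, of which 5 were intronic and 1 at the start of another gene, Ilp6. All were narrow, 166 to 201 bp, at 8347 to 46488 bp from the HAS within Raf itself, 4 of them held a GA repeat and 6 a CA repeat as defined below, and 0 lay within 1 kb of a TSS of Raf. Smr, which encodes a nuclear corepressor, held 5 members of 307 to 1181 bp, 3 of them intronic. IP3K2, the gene of an inositol trisphosphate kinase, held 5 of 150 to 334 bp, all at promoters and 4 of them within 1 kb of a TSS of IP3K2 itself. The long noncoding RNA genes lncRNA:CR44357 and lncRNA:CR32773 held 5 each, and both span other genes that share these peaks, such as CG1677 with 4 and bi with 3.

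Tlk held 4 (421 to 2536 bp), bif, named bifocal and needed for photoreceptor development, held 4 (150 to 1036 bp), of which 2 lie in its introns, 1 in its coding exon and the widest, past its end, in an intron of PhKgamma, and Ptpmeg2, a tyrosine phosphatase gene, held 4 (154 to 208 bp). Of the genes with 3 members, the largest summed widths were at su(sable), which encodes an RNA-binding repressor (1949 bp), at gce, a juvenile hormone receptor gene (1774 bp), and at Klp10A, the gene of a microtubule-depolymerizing kinesin (1468 bp). In all 462 genes had at least 1 member, 353 of them exactly 1 and 25 of them 3 or more.

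Sequence at the members was compared with flanks, windows of the same 500 bp placed 2 kb to either side where no peak of any list reached. All tests against flanks counted each window as independent and did not match a member to its own flanks. A GA repeat, the word GAGAGAGA on either strand with up to 1 mismatch, was in 149 of 341 member windows (43.7%, 38.5 to 49.0) and in 157 of 636 flanks (24.7%), a difference of 19.0 percentage points (two-sided Fisher's exact test, adjusted p = 4.86e-09 over 9 words). A CA repeat, CACACACA with the same rule, was in 65.1% of members and 43.7% of flanks (21.4 points, adjusted exact p = 7.15e-10). Shuffled words of the same bases did not differ in the tests: GGAAGGAA was in 26.4% and 29.1% (adjusted exact p = 0.463) and CCAACCAA in 39.0% and 37.1% (adjusted exact p = 0.58). The GA and CA calls passed in every alternative tried, with differences of 8.90 to 28.3 points for GA and 17.8 to 28.5 for CA. In members more than 500 bp from a TSS, the difference was 28.3 points for GA and 28.5 for CA (both with adjusted exact p = 3.16e-05). The median GC content was 46.8% in member windows and 44.8% in flanks.

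The repeats were concentrated near the midpoint. In bins of 100 bp, GA matches were in 12.6% and 19.4% of members in the bins on either side of the midpoint and in 7.33% and 7.92% at 500 to 600 bp away. CA matches were in 24.9% of members on each side and in 11.7% and 14.7% at the same distance. Both repeats occurred together in 106 members (31.1%), GA alone in 43, CA alone in 116 and neither in 76 (22.3%), while 11.5% of flanks had both and 43.1% neither. By gene part, the GA repeat was in 39.9% (34.0 to 46.2) of promoter members and 49.2% (37.5 to 61.1) of intronic ones. The CA repeat was in 61.3% (55.1 to 67.2) of promoter members and in 81.5% (70.4 to 89.1) of intronic ones. These parts were not tested against each other.

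**Figure D4:**
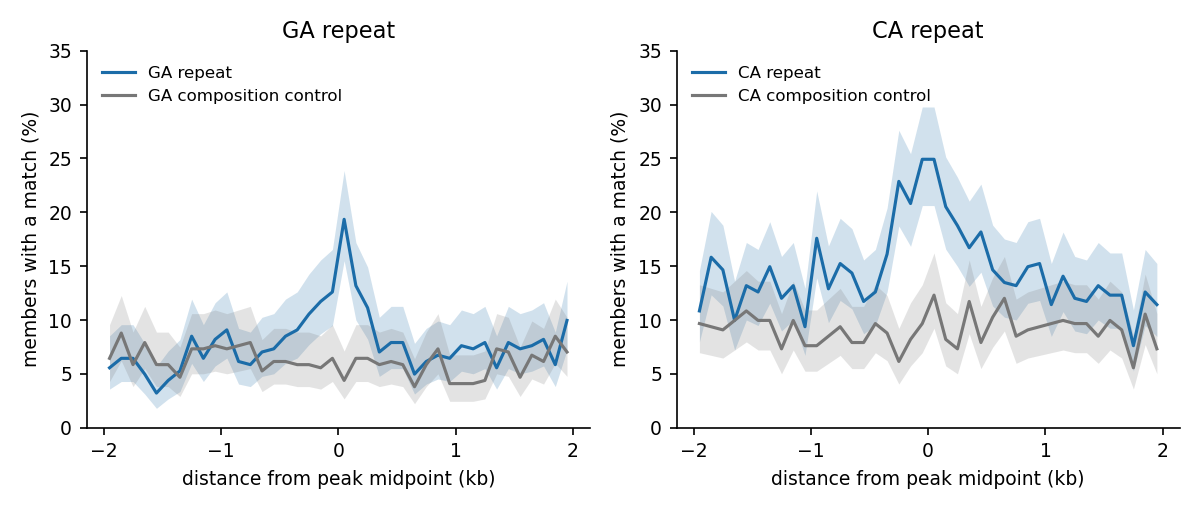
Percent of the 341 members (vertical axis) with a match to the GA repeat (left) or CA repeat (right) in bins of 100 bp by distance from the peak midpoint in kb (horizontal axis), with the shuffled word of the same bases, GGAAGGAA or CCAACCAA, in grey and 95% Wilson intervals as bands. GA reaches 19.4% and CA 24.9% beside the midpoint, and the shuffled words show no such rise.

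Words known from fly promoters were also counted against the flanks, on both strands and with 0 mismatches except for the A tract. Motif 1, searched as GGTCACAC and known as a core element of housekeeping promoters, was in 9.38% of members and 1.26% of flanks (adjusted exact p = 7.12e-09). The DNA replication-related element (DRE), TATCGATA, the target of the factor DREF, was in 7.04% and 1.57% (adjusted exact p = 4.33e-05), and the E-box CAGCTG in 33.7% and 25.8% (adjusted exact p = 0.0141). The TATA box word TATAAA was in 33.4% of members and 37.9% of flanks (adjusted exact p = 0.238). An A tract, AAAAAAAA with up to 1 mismatch, was in 81.8% and 61.0% (adjusted exact p = 8.29e-11). In windows of 200 bp the motif 1 call passed (7.31 points, adjusted exact p = 8.68e-09), whereas the A tract (3.75 points, adjusted exact p = 0.306), DRE (1.43 points, adjusted exact p = 0.133) and E-box (5.35 points, adjusted exact p = 0.0508) did not. With 1 peak kept per 2 kb the E-box also did not (adjusted exact p = 0.0609).

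Against the other X peaks the repeats did not set the members apart. The GA repeat was in 47.1% of peaks beyond 50 kb (members minus these -3.39 points, adjusted exact p = 0.875 over 18 comparisons) and in 31.0% of those within 5 kb (12.7 points, adjusted exact p = 0.127). The CA repeat was in 58.3% beyond 50 kb (adjusted exact p = 0.33) and in 54.3% within 5 kb (adjusted exact p = 0.165). Only the A tract passed, at 81.8% against 68.1% within 5 kb (adjusted exact p = 0.0478), and it was lost with peaks of at least 250 bp, with 1 peak per 2 kb and in windows of 200 bp (adjusted exact p between 0.179 and 0.891).

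Flanks are mostly not promoters, so the members' promoters were also set against other promoters. For each promoter member the 500 bp window centred on its nearest TSS was taken (242 windows), and the controls were 725 windows at the first TSS of X genes at the same distance from a HAS with no peak of any list within 1 kb. The GA repeat was in 37.6% of the members' promoters and 22.1% of the controls (15.5 points by Fisher's exact test, with an adjusted p = 1.87e-05), against 26.8% of all 3907 X TSS windows. The CA repeat was in 57.9% and 38.8% (adjusted exact p = 2.79e-06), against 46.7% of all X TSS windows. Motif 1 was in 14.5% and 5.38% (adjusted exact p = 5.28e-05), the E-box in 33.9% and 23.0% and the A tract in 87.2% and 77.9% (adjusted exact p = 0.00267 for both). The DRE was in 10.3% and 10.2% (adjusted exact p = 1) and the TATA word in 41.3% and 47.9% (adjusted exact p = 0.112). Of the shuffled words, GGAAGGAA was less frequent at the members' promoters, 21.1% against 29.2% (adjusted exact p = 0.0231), and CCAACCAA did not differ in the test (38.4% and 37.9%, adjusted exact p = 1). The GA, CA, motif 1 and E-box calls passed with protein-coding genes alone and in windows of 200 bp, but the differences of the repeats shrank. In windows of 200 bp the GA difference was 9.49 points (adjusted exact p = 8.02e-04) and the CA difference 10.3 points (adjusted exact p = 0.00161), and with 0 mismatches the GA difference was 5.50 points (adjusted exact p = 0.00546). In windows of 200 bp the A tract (5.72 points, adjusted exact p = 0.206) and GGAAGGAA (adjusted exact p = 0.492) were lost, and GGAAGGAA was also lost with protein-coding genes alone (adjusted exact p = 0.0567).

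**Figure D5:**
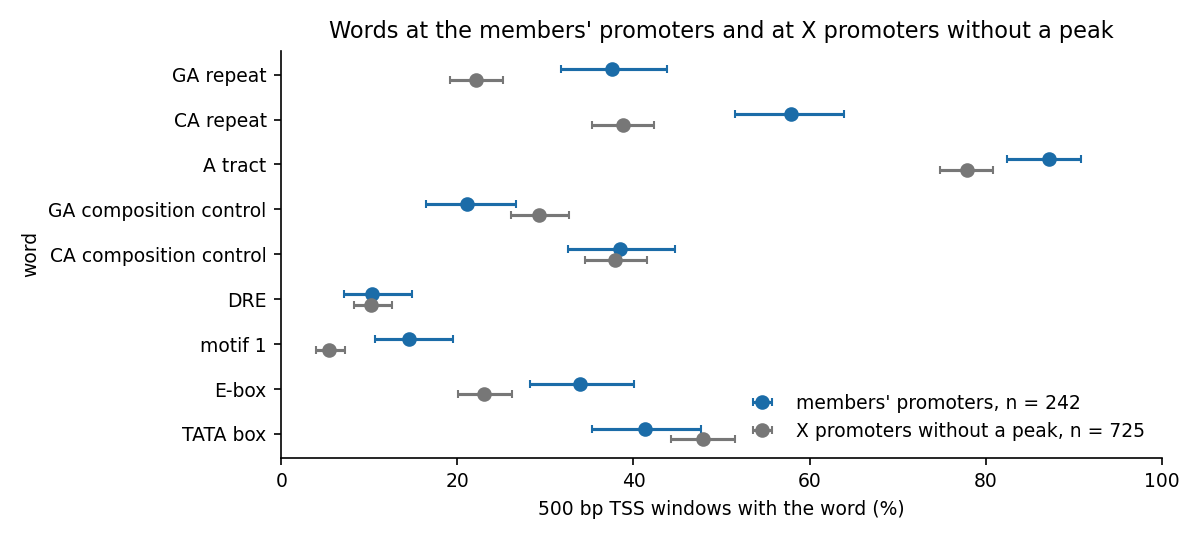
Percent of 500 bp windows centred on a TSS that hold each word (horizontal axis, one word per row), for the 242 promoters of members and 725 X promoters at the same distance from a HAS without a peak, with 95% Wilson intervals. The GA repeat, CA repeat and motif 1 lie apart, at 37.6 against 22.1%, 57.9 against 38.8% and 14.5 against 5.38%. So do the E-box, at 33.9 against 23.0%, and the A tract, at 87.2 against 77.9%, while DRE overlaps.

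Promoter activity was not measured in these lists, and the groups differ in other ways whose part was not tested. The control windows were all at a first TSS. The nearest TSS was an internal one for 73 of the 243 promoter members. The median GC content was 44.6% at the members' promoters and 41.8% at the controls. Protein-coding genes at promoter members had a median length of 5476 bp and a median of 2 TSS, against 2429 bp and 1 for protein-coding genes in the zone with no peak at the first TSS. At a GC content of at most 42.8%, the median of all windows, the GA repeat was in 29.1% (20.5 to 39.4) of the members' promoters. In the controls it was in 83 of 415, or 20% (16.4 to 24.1), and these intervals overlap. Above the median the GA repeat was in 42.3% (34.8 to 50.2) of the members' promoters and 24.8% (20.4 to 29.9) of the controls. Motif 1 was in 20.9% and 6.99% at or below the median and in 10.9% and 3.23% above it. The CA repeat was in 48.8% (38.6 to 59.2) and 38.3% (33.8 to 43.1) at or below it, where the intervals overlap. Above it, the CA repeat was in 62.8% and 39.4%. The E-box was in 32.6% and 20.7% at or below it and in 34.6% and 26.1% above, with overlapping intervals in both. No word was tested within these groups of GC content.

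A scan of all 2080 words of 6 bp, each with its reverse complement, found 219 (10.5%) that differed between the members' promoters and the controls at an adjusted exact p under 0.05, 133 more frequent at members and 86 less. The leading ones were GCACGC (36.4% of members' promoters, 14.9% of controls, adjusted exact p = 1.32e-08), CGCACG (35.5% and 14.5%, adjusted exact p = 1.39e-08), CGCACA (46.3% and 23.7%) and GCACAC (45.9% and 23.7%), which overlap each other and the CA repeat. Over all X TSS windows they were in 20.4, 18.4, 29.7 and 31.5%. Of the 133 words, 94 (70.7%) contain CG, as do 29.0% of all words scanned and 8 of the 86 that were less frequent. The one furthest in the other direction was AATTCC (16.9% and 32.0%, adjusted exact p = 3.42e-04), found in 27.6% of all X TSS windows.

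These words carry the clearest difference between promoters with and without a peak, so the stretches of 80 bases most filled by the leading 4 are shown, on the plus strand, with the words in capitals on either strand. They were chosen after the scan for that content.

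east, chrX:2012658-2012737: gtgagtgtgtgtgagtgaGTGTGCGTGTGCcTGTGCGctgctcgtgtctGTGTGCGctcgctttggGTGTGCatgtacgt
lncRNA:CR45018, chrX:13303996-13304075: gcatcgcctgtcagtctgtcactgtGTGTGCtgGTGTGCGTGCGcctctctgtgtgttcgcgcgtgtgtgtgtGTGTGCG

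The first lies just after an internal start of east, in a peak of 1141 bp at 49518 bp from its HAS, and the second at the start of a noncoding RNA gene within IP3K2, in a peak of 267 bp. In the first, 31 of 80 bases lie in the words, and in the second 24.

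Turning to the genes, 380 of the 2813 annotated X genes had a member within 1 kb of a TSS, which is 13.5%. Among the 1268 whose first TSS lies more than 5 and at most 50 kb from a HAS, 366 did, or 28.9%, and this is the value to read the lists against. Among the protein-coding genes of the zone the share was 32%. A peak counts for every gene with a TSS in reach, so its nearest TSS can be that of another gene. No list was tested, and with 1 to 15 genes of each of the 16 lists in the zone the counts are small. In 12 lists the share of genes in the zone with a member was at or above both values. This count is a description only. Some lists share genes or peaks, and all were written with earlier results of these data known.

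Among genes of protein synthesis, 4 of the 5 cytosolic ribosomal protein genes in the zone had a member: RpS19a with a peak of 1203 bp, shared with the divergent kinase gene Rok, RpL36 (577 bp), RpL22 (359 bp) and RpS5a (198 bp). None of these 4 peaks held a GA repeat, but only 39.9% of all promoter members did. With 4 peaks no difference can be read from this, and none was tested. Among mitochondrial ribosomal protein genes 3 of 5 in the zone had one, mRpL22 (811 bp), mRpL38 (183 bp) and mRpS30 (168 bp). Both translation factor genes in the zone did, eIF2Bepsilon (484 bp, a peak nearest to a start of Ocrl) and eIF2Bbeta (179 bp, nearest to a start of Ugalt). Both encode subunits of the exchange factor of eIF2. Of 5 genes of oxidative phosphorylation 2 had a member, ND-B18, with peaks of 215 and 211 bp, and ND-ASHI (209 bp), both encoding subunits of complex I. The 215 bp peak lies in an intron of hiw, nearest to a start of hiw, and the ND-ASHI peak is nearest to a start of Fum1. Of 3 proteasome genes 0 had a member.

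In the EGF receptor and MAPK list 4 of 5 genes in the zone had a member: rho-4, a rhomboid gene, with 2, Vav (835 bp), encoding an exchange factor, Dsor1 (573 bp), encoding MEK, and csw (189 bp), encoding a tyrosine phosphatase. In the Wingless and Hedgehog list it was 4 of 7. These were arm, the β-catenin gene, with 2 (532 and 159 bp, the latter nearest to a start of asRNA:CR45929), sgg, the GSK3 gene (716 bp), dsh (308 bp) and the receptor gene fz3 (203 bp). In the JAK/STAT list 2 of 3 did, the kinase gene hop (214 bp) and the receptor gene dome (196 bp). In the Notch list 2 of 4 did, amx (573 bp) and Bx (200 bp, nearest to a start of HisRS), and the peak at amx is that at Dsor1. Both insulin and TOR genes in the zone did, rictor (835 bp, the peak it shares with Vav) and Ilp6 (179 bp), an insulin-like peptide gene.

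Of 15 developmental transcription factor genes in the zone 7 had a member, and 2 others of the list, with the first TSS outside it, also had one. B-H2 had 2 (198 and 384 bp, both with a GA repeat), gce 1 at a TSS (701 bp), sd, the partner of Yorkie, 1 (673 bp), and Sp1 1 (649 bp). The ecdysone and juvenile hormone list held gce and usp (152 bp, nearest to a start of Actn), the partner of the ecdysone receptor, as 2 of 5. Among chromatin regulators 4 of 10 in the zone had one, and 6 of 22 in all: Tip60, an acetyltransferase gene (997 bp), Tlk (421 bp), Taf9 (305 bp) and HDAC6 (258 bp) had the widest. The list for cell cycle and replication held Grip91 (251 bp), a gene of the γ-tubulin ring complex, as 1 of 4, and that for neuronal excitability and adhesion held the integrin gene if (811 bp, the peak it shares with mRpL22) and sdk (226 bp) as 2 of 8. Of the 9 genes of dosage compensation and X counting, 1 lay in the zone and 0 had a member.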

How the data were processed

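The 3 deposited peak lists give chromosome, start and end, and the unit of their columns is classed as other (genome positions). The deposited score column of the autosomal list held only 0 in 1685 rows and was not used. Among the files, 0 columns of other samples were found. Bedtools, the aligner Bowtie2 (2.3.0.1) and the peak caller MACS2 (2.1.1.20160309.0) are listed in the submitters' processing notes, with dm6 and BDGP6 as builds and no roles. The sources used here do not give the libraries, control, threshold or pooling behind the lists. The authors' HAS list was reduced from 170 rows to 159 distinct intervals, 135 of them on X.

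Starts were made 1-based. No X interval passed the end of the reference X (23542271 bp). Genes came from the Ensembl BDGP6 annotation without transposable elements (2813 on X). The 2704 genes shared by symbol with RefSeq had the same coordinates there. Midpoints were assigned in turn to promoter (500 bp), untranslated regions, coding exon, noncoding exon, intron or intergenic. Windows at TSS closer than 500 bp to a kept one were dropped. Shares were compared by two-sided Fisher's exact tests with Benjamini-Hochberg adjustment within each family and 95% Wilson intervals (Python 3.11.15, NumPy 2.4.6, SciPy 1.17.1). The tests were checked on simulated data.

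Named genes are the 12 with the most members, those at the 6 widest members, at the 6 busiest HAS, at printed sequences and limits, and up to 4 per gene list. Members, lists and words were chosen with earlier results of these data known. Alternatives changed limits, widths, windows, promoters, mismatches and flanks.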

Additional observations from a re-analysis of the deposited data

How the results depend on the processing

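The results were recomputed under 142 combinations of result and alternative, of which 110 were classed as the same. For differences this means that the direction and the side of the threshold were kept. Counts have neither, and those classed as the same were near the main count: 304 to 336 members against 341, and 161 to 214 words of 6 bp against 219. Keeping only peaks of at least 250 bp left 173 members. The promoter share against peaks beyond 50 kb was no longer called with peaks of at least 250 bp (15.0 percentage points, adjusted exact p = 0.146), 1 peak kept per 2 kb (10.1, 0.0677), promoters within 200 bp (8.46, 0.236) or 1000 bp (8.93, 0.0747), protein-coding genes only (10.2, 0.0522), limits of 10 and 40 kb (5.68, 0.504), and without the 14 peaks of the Cph and CG1677 region, 5 of them members, an alternative chosen after seeing the data (9.39, 0.0878). The promoter share against peaks within 5 kb turned to -3.29 points with limits of 10 and 40 kb (adjusted exact p = 0.816). The GA repeat against peaks beyond 50 kb turned to 0.85 points in windows of 200 bp (adjusted exact p = 0.937) and to 0.0066 over whole peaks (adjusted exact p = 1), and neither these nor the main difference passed. The promoter share of nearer against farther members passed with the split at 15 kb (15.2 points, adjusted exact p = 0.00486). The cause of these changes was not tested. The alternatives for coding exons, introns, intergenic peaks and the remaining words were added after seeing the data. No pairing of libraries was possible because the lists name no library and each group has 1 library. Members were not paired with their own flanks in the tests. The depth is unknown, no peak carries a height, and a place without a peak may be one below an unstated threshold.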

Other observations

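By gene type, 328 of 2196 protein-coding X genes (14.9%) had a member within 1 kb of a TSS, as had 42 of 483 noncoding RNA genes (8.70%), 8 of 74 pseudogenes (10.8%) and 2 of 31 snoRNA genes (6.45%). Of the 24 tRNA genes on the X, 0 had one. These shares were not tested. Some of the noncoding RNA genes, such as lncRNA:CR45018 within IP3K2, overlap a protein-coding gene that shares the peak, and such cases were not counted. Neighbouring members stood a median of 14187 bp apart by midpoint, with 40 neighbouring pairs at most 2 kb apart and 98 at most 5 kb apart. Promoter peaks with TSS on 1 strand had their midpoint upstream of the TSS in 39.1% of those within 5 kb of a HAS, 46.9% of the members and 54.8% of those beyond 50 kb, with 95% Wilson intervals of 26.4 to 53.5, 39.8 to 54.2 and 45.2 to 64.0, which overlap.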
